A study of Mus musculus with 12 samples.

Results

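The transcriptomes of *Treml4*-/- and wild type (wt) bone marrow-derived macrophages were compared over 3 time points, and the genes that differed between the genotypes at every time point are described here. All 12 libraries of the series entered the comparison, 6 of each genotype, with time point as a covariate. Of 43280 genes in the deposited table, 12086 reached at least 1 CPM (counts scaled to a common library total) in at least 2 of the 12 libraries and were tested. The genotypes differed in 46 genes across the time points, in 20 of these with separated libraries at every time point, and in 8 genes by a test at each time point.

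Bone marrow cells of C57BL6 wt or *Treml4*-/- mice were cultured with 20 ng/ml M-CSF, the growth factor that drives macrophage differentiation. Unpolarized cells (M0) received the PBS vehicle, and M1 cells received 100 ng/ml LPS, a bacterial cell wall component sensed by Toll-like receptor 4, for 8 h (M1-8 h) or 12 h (M1-12 h). Each of the 6 groups held 2 biological replicates, and the labels give neither the age of the mice nor the animal behind each library. The *Treml4*-/- line was obtained from another laboratory as an established knockout, and the same replicate numbers recur at the 3 time points, so that libraries of a genotype with the same number may come from the same animal. Between 48008751 and 58500792 reads were counted per library, and replicates of a group differed by more than counting error (chi-square per degree of freedom between 11.28 and 51.72). Of the 12 macrophage markers examined, each was detected and tested, 0 were called between genotypes by the limma test used below (3 had an unadjusted p under 0.05, against 20.0% of all tested genes), and their summed level was 17780 to 46160 CPM in wt and 16010 to 38200 CPM in *Treml4*-/- libraries.

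*Treml4* encodes a member of the triggering receptors expressed on myeloid cells (TREM), cell surface proteins with an immunoglobulin-like domain. Several TREM receptors pair with the adaptor DAP12 (encoded by *Tyrobp*), which passes the signal to the kinase Syk. In mouse macrophages and dendritic cells TREML4 has been linked to the binding of dying cells and to signalling by the endosomal receptor TLR7.

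The first comparison asked which genes differed by genotype once the time point was accounted for. Across time points 46 genes were called, that is with an adjusted p under 0.05 (limma, Benjamini-Hochberg over the 12086 genes) and a fold of at least 1.4 on the log2(CPM + 1) scale. They made up 0.381% of the tested genes, with 37 genes higher (0.306%) and 9 lower (0.0745%) in *Treml4*-/- macrophages. The median difference over all tested genes was 0.0529 in log2(CPM + 1), *Treml4*-/- minus wt. With median of ratios scaling the calls split into 22 higher and 23 lower, and with quantile normalization into 21 and 19, so that the excess of higher calls depended on the scaling. When each culture was averaged over its 3 time points and 2 cultures were compared with 2, 12 genes were called. The count was 155 without wt M0 replicate 1, 29 without wt M1-8 h replicate 1, 26 without wt M1-12 h replicate 2, 22 without *Treml4*-/- M1-12 h replicate 1 and 27 without *Treml4*-/- M1-12 h replicate 2.

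**Figure D1:**
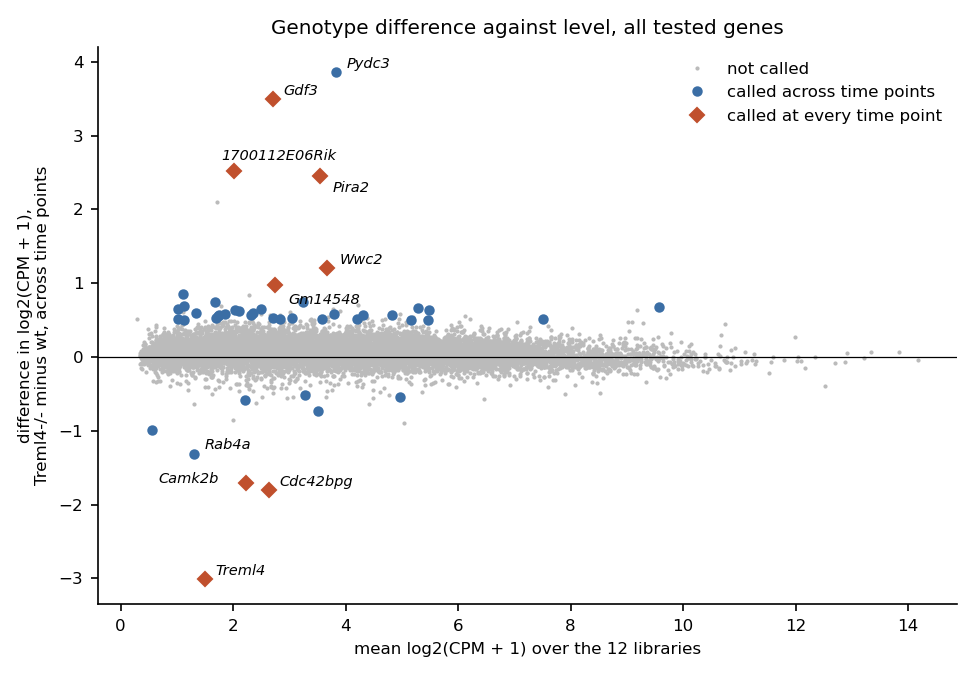
Difference in log2(CPM + 1), *Treml4*-/- minus wt, across time points (vertical axis) against the mean log2(CPM + 1) of the 12 libraries (horizontal axis) for the 12086 tested genes. Each point is a gene, and the 8 genes called at every time point (diamonds) run from -3.01 for *Treml4* to 3.49 for *Gdf3*, while the uncalled gene *Slc15a2* reached 2.09.

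The time points were then tested one by one, with a mean for each genotype and time and 1 estimate of the spread from all 12 libraries. At M0 12 genes were called (0.0993%), 7 higher and 5 lower in *Treml4*-/-. After 8 h of LPS 11 genes were called (0.091%), 7 higher and 4 lower, and after 12 h 16 genes (0.132%), 10 higher and 6 lower. The split turned with the scaling, to 6 higher and 7 lower at 8 h and 8 and 12 at 12 h with median of ratios, and to 5 and 6 at 8 h and 6 and 10 at 12 h with quantile normalization. Of the 20 genes called at any time point, 8 (0.0662% of the tested genes) were called in the same direction at all 3, namely *Treml4*, *Cdc42bpg* and *Camk2b*, which were lower, and *Gm14548*, *Wwc2*, *Pira2*, *1700112E06Rik* and *Gdf3*, which were higher in *Treml4*-/-. Each of these 8 genes was also called across time points under each of the 32 other settings that were run. The 8 genes were picked by tests on the same libraries, so these calls are no separate support for them. The number called at every time point was 5 without wt M1-12 h replicate 2, without *Treml4*-/- M0 replicate 1 or without *Treml4*-/- M0 replicate 2. The counts by time point moved more, to 219 at M0 without wt M0 replicate 1, to 598 at 8 h without *Treml4*-/- M1-8 h replicate 1 and to 76 at 12 h without wt M1-12 h replicate 1.

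The targeted gene itself, *Treml4* (chr17:48264295-48275360, plus strand, GRCm38), was detected in each wt library and in 0 of 6 *Treml4*-/- libraries. The wt libraries held 433 and 334 *Treml4* reads at M0, 198 and 213 at 8 h, and 512 and 663 at 12 h. These counts correspond to 8.35 and 6.57 CPM, 3.997 and 3.955 CPM, and 9.82 and 13.2 CPM of *Treml4*. Every *Treml4*-/- library held 0 reads of the gene, so that with a floor of 3 reads per library the wt level was at least 127-fold higher at M0, at least 74.9-fold higher at 8 h and at least 201-fold higher at 12 h. *Treml4* was lower in wt at 8 h than at either other time point, and the wt libraries of the 3 time points did not overlap. In bulk RNA a change in the share of expressing cells and a change in RNA per cell cannot be told apart, here and for the genes that follow.

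Among receptors, 2 members of the paired immunoglobulin-like receptors (PIR) were higher in *Treml4*-/- at every time point. This family holds activating receptors of the PIR-A type, which signal through the Fc receptor gamma chain (*Fcer1g*), and the inhibitory receptor PIR-B (*Pirb*). Of 9 tested genes of the PIR list, which includes *Fcer1g*, these 2 were called across time points (0.381% over all tested genes). An unadjusted p under 0.05 was found for 7 of the 9, against 20.0% of all tested genes. The difference was above 0 in 7, against 8000 of 12086, with a median of 0.22. *Pira2* (chr7:3836812-3845051, minus strand) stood at 6.87 and 7.06 CPM in wt against 41.9 and 41.5 CPM in *Treml4*-/- M0 libraries. The *Pira2* levels were 3.55 and 3.32 against 22.7 and 21.3 CPM at 8 h, and 2.36 and 2.64 against 20.0 and 19.6 CPM at 12 h. Its lowest *Treml4*-/- library (19.6 CPM) was above its highest wt library (7.06 CPM). The mean *Pira2* level in *Treml4*-/- was 5.99-, 6.39- and 7.93-fold that of wt at the 3 time points, and the difference across time points was 2.46 ± 0.06 (SE) in log2(CPM + 1), with a limma adjusted p of 3.34e-11.

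The second PIR gene, *Gm14548* (chr7:3884242-3898120, minus strand), starts 53069 bases from the start of *Pira2*. Its levels were 6.56 and 7.53 CPM in wt against 17.03 and 16.11 CPM in *Treml4*-/- at M0. At 8 h *Gm14548* stood at 3.59 and 3.44 against 8.34 and 7.21 CPM, and at 12 h at 2.19 and 1.95 against 4.40 and 4.51 CPM. The ratio of the means was close at the 3 times, 2.35, 2.21 and 2.16, while the level fell with time after LPS in both genotypes. Across time points the *Gm14548* difference was 0.97 ± 0.07 in log2(CPM + 1) (limma adjusted p = 7.88e-06). *Pirb*, in the same cluster (chr7:3711409-3720391), did not pass the test, with a difference of -0.03 ± 0.05 and levels of 352 to 876 CPM in wt and 350.3 to 904 CPM in *Treml4*-/-.

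The PIR genes are close copies, which bears on how reads were assigned to them. Of the 126-base windows of the *Pira2* transcripts 79.6% occur also in other genes (8 genes, most windows in *Gm15922*), and 46.2% of those of *Gm14548* do (6 genes, most windows in *Pira2*). How reads matching several genes were counted is not given in the sources used here, so the split between *Pira2*, *Gm14548* and their neighbours is uncertain. *Gm15922* itself stood at 4.66 to 8.55 CPM in wt and 6.77 to 9.77 CPM in *Treml4*-/- and was not called (0.19 ± 0.08, limma adjusted p = 0.23). *Gm10693*, a transcribed pseudogene between *Pira2* and *Gm14548* (chr7:3860681-3869170), held 0 to 3 reads per wt library against 53 and 54 at M0, 13 and 12 at 8 h and 4 and 25 at 12 h in *Treml4*-/-. It was called at M0 (limma adjusted p = 0.00603) but not across time points (adjusted p = 0.0785).

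The promoters of the called pair and of *Pirb* are shown because genes with nearly the same start region had different genotype differences. Each RefSeq sequence (GRCm38.p6) runs from 250 bases before to 50 bases after the gene start on the gene's strand, and capitals mark GAGGAAGT, a core letter sequence recognised by the myeloid factor PU.1. The windows are chr7:3845002-3845301 for *Pira2*, chr7:3898092-3898391 for *Gm14548* and chr7:3720333-3720632 for *Pirb*, all on the minus strand.
Pira2: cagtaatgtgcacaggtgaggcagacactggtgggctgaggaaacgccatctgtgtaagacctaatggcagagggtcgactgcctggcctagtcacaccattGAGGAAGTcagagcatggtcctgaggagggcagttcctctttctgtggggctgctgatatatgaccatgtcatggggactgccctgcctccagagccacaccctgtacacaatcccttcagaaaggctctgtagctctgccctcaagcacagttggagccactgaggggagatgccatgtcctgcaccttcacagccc
Gm14548: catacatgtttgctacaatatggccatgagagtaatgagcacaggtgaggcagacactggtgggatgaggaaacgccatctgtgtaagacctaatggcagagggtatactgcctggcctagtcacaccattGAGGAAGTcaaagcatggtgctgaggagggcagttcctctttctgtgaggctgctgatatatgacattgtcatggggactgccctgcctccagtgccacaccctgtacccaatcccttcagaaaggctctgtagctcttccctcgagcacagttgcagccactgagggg
Pirb: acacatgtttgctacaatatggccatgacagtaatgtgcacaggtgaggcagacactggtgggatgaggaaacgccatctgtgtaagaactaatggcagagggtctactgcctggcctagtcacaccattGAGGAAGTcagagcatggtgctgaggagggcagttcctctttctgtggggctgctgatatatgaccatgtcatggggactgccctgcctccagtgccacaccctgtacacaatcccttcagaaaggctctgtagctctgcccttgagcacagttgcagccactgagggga
In the aligned bases the *Pira2* promoter was 94.5% identical to that of *Gm14548* (256 of 271 bases) and 97.1% identical to that of *Pirb* (264 of 272 bases), and *Gm14548* and *Pirb* shared 287 of 299 bases (96.0%). All 3 hold GAGGAAGT once, on the gene's strand. Searched on both strands, GAGGAAGT occurs in 3.20% of 32851 RefSeq promoters of this length (1052 promoters). The match describes the letters only, and binding was not measured.

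The secreted ligand *Gdf3* (chr6:122605403-122610087, minus strand) had the largest difference of the 5 genes called higher at every time point. GDF3 belongs to the TGF-beta superfamily and is known from the early embryo, from adipose tissue and from macrophages. At M0 *Gdf3* stood at 2.51 and 2.16 CPM in wt against 56.4 and 49.2 CPM in *Treml4*-/-. It fell after LPS in both genotypes, to 0.787 and 0.520 against 17.1 and 12.2 CPM at 8 h, and to 0.441 and 0.278 against 12.0 and 11.5 CPM at 12 h. The lowest *Treml4*-/- library was thus above the highest wt library whatever the time point. The ratios of the mean *Gdf3* levels were 22.6, 22.5 and 32.7, and the difference across time points was 3.49 ± 0.13 in log2(CPM + 1) (limma adjusted p = 4.52e-09). Of the 20 tested ligands, receptors and Smads of this superfamily, *Gdf3* was the only gene called (0.381% over all tested genes), and the list's median difference was 0.01.

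Both genes that were lower in *Treml4*-/- besides *Treml4* encode protein kinases. *Cdc42bpg* (chr19:6306456-6325652, plus strand) encodes the gamma form of the kinases that bind the GTPase Cdc42 and act on actin and myosin. *Cdc42bpg* stood at 11.9 and 11.5 CPM in wt against 1.12 and 1.93 CPM in *Treml4*-/- at M0, at 8.38 and 9.65 against 2.00 and 3.31 CPM at 8 h, and at 11.9 and 10.8 against 2.96 and 3.33 CPM at 12 h. The wt level was 7.68-, 3.40- and 3.61-fold that of *Treml4*-/- at these times, and the difference across time points was -1.80 ± 0.15 in log2(CPM + 1) (limma adjusted p = 2.44e-05). Its lowest wt library (8.38 CPM) exceeded its highest *Treml4*-/- library (3.33 CPM).

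*Camk2b* (chr11:5969644-6066362, minus strand) encodes the beta subunit of calcium/calmodulin-dependent kinase II, best known from neurons. It rose after LPS in both genotypes but from a lower level in *Treml4*-/-. The *Camk2b* libraries held 3.66 and 3.56 CPM in wt against 0.978 and 0.561 CPM in *Treml4*-/- at M0, 11.4 and 11.7 against 2.86 and 1.72 CPM at 8 h, and 9.61 and 9.47 against 2.79 and 1.53 CPM at 12 h. In each group *Treml4*-/- replicate 2 was the lower of the *Treml4*-/- pair. The wt level was 4.69-, 5.04- and 4.42-fold higher, and the difference across time points was -1.70 ± 0.13 (limma adjusted p = 8.81e-06).

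The related kinases did not follow these genes as a group. Of 19 tested genes of the calcium/calmodulin kinase II and Cdc42-linked kinase list 2 were called lower and 1 higher, with a median of 0.05. Over all tested genes 0.381% were called in either direction. The 2 lower genes were *Camk2b* and *Cdc42bpg* themselves, and the list was chosen with earlier results of these data known. The higher gene was *Cdc42bpa*, which encodes the alpha form of the Cdc42-binding kinases, with 1.37 to 2.53 CPM in wt and 2.57 to 3.26 CPM in *Treml4*-/- libraries. Its difference was 0.52 ± 0.09 (limma adjusted p = 0.0269), and the call was lost in 17 of 31 other settings (adjusted p 0.000386 to 0.35). *Cdc42bpb*, at 53.6 to 152 CPM in wt, had a difference of 0.01 ± 0.05, and *Camk2d*, encoding the delta subunit, one of 0.24 ± 0.08 (limma adjusted p = 0.186).

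*Wwc2* (chr8:47823959-47990924, minus strand) encodes a WW and C2 domain scaffold that acts upstream of the LATS kinases in the Hippo pathway. Its levels were 18.8 and 16.3 CPM in wt against 33.4 and 33.7 CPM in *Treml4*-/- at M0, 4.64 and 5.35 against 14.7 and 13.5 CPM at 8 h, and 4.30 and 4.31 against 13.1 and 12.6 CPM at 12 h. *Wwc2* fell after LPS in both genotypes, so that its *Treml4*-/- level at 12 h lay below its wt level at M0. The ratio of the means was 1.91 at M0, 2.82 at 8 h and 2.98 at 12 h, and the difference across time points was 1.21 ± 0.09 (limma adjusted p = 6.09e-06). Of the 16 tested Hippo pathway genes *Wwc2* alone was called (0.381% over all tested genes), and the median of the list was 0.12. Its relative *Wwc1* had a difference of 0.11 ± 0.10.

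*1700112E06Rik* (chr14:22019712-23056085, plus strand), now named *Lrmda*, encodes a leucine-rich repeat protein known for a part in melanocyte differentiation. It stood at 0.752 and 0.767 CPM in wt against 11.4 and 12.2 CPM in *Treml4*-/- at M0, at 0.242 and 0.371 against 5.68 and 5.62 CPM at 8 h, and at 1.02 and 1.11 against 10.1 and 9.04 CPM at 12 h. In both genotypes the lowest *1700112E06Rik* levels were those at 8 h, and the highest wt library (1.11 CPM) was well below the lowest *Treml4*-/- library (5.62 CPM). The ratios of the means were 15.6, 18.4 and 8.98, and the difference across time points was 2.52 ± 0.09 (limma adjusted p = 2.52e-09).

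**Figure D2:**
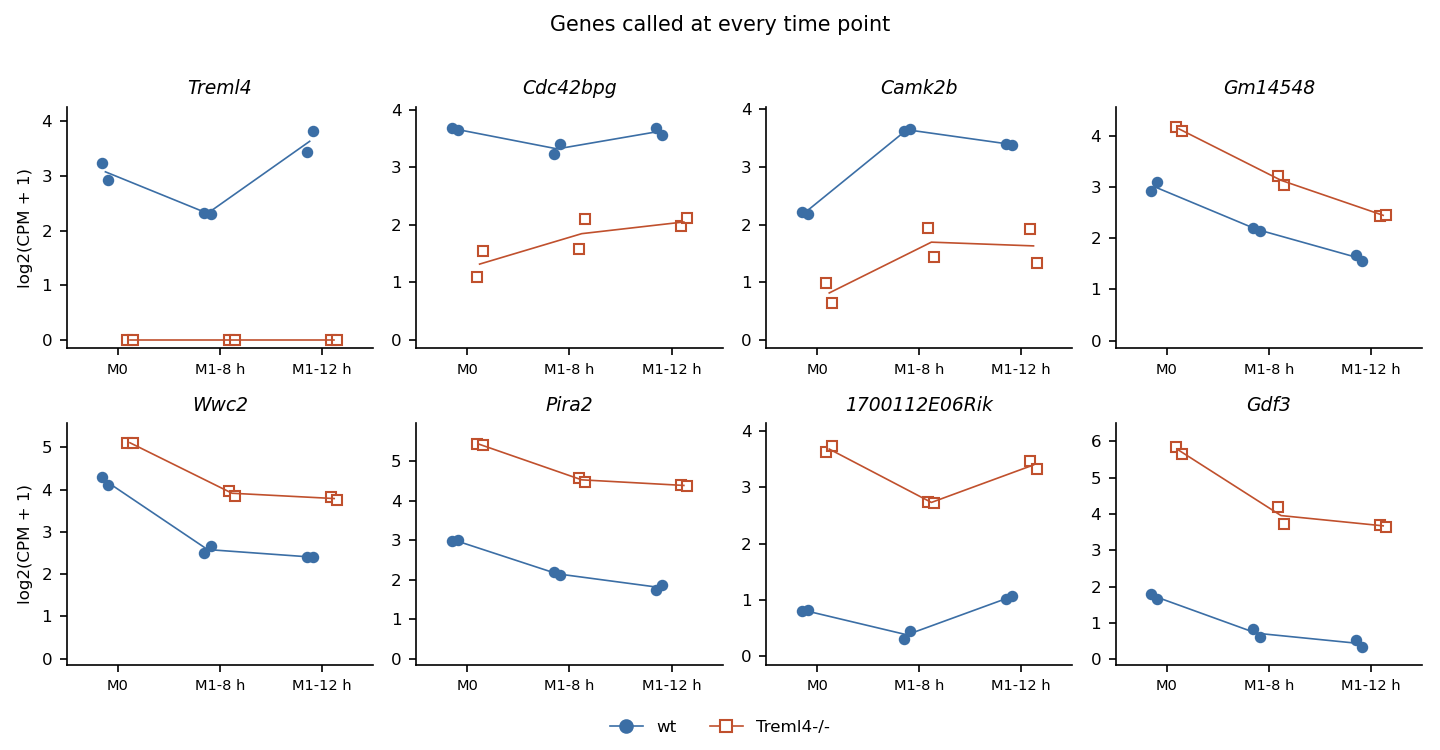
Level of the 8 genes called at every time point as log2(CPM + 1) (vertical axes, each with its own scale) at M0, M1-8 h and M1-12 h (horizontal axes). Circles are the 2 wt libraries and squares the 2 *Treml4*-/- libraries of a time point, lines join their means, and the genotypes do not overlap at any time point in any panel.

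The wider reading of differing at every time point took the genes called across time points whose 2 *Treml4*-/- and 2 wt libraries did not overlap, with at least 1.4-fold in the same direction at each time. This held for 20 genes (0.165%), 14 higher and 6 lower, and they include the 8 genes above. Without wt M0 replicate 1 there were 32. Without the call, 25 of the tested genes were separated in this way (0.207%). The 5 genes separated but not called were *Slc15a2*, *Cd109*, *5830444B04Rik*, *Fxyd2* and *Gm23935*, named after their values were seen, with limma adjusted p from 0.0523 to 0.147. Among these *Slc15a2*, which encodes a peptide transporter, had the largest difference, 2.09 ± 0.49. Its *Treml4*-/- replicates stood far apart, at 0.978 and 3.22 CPM at M0, 6.05 and 45.5 CPM at 8 h and 2.48 and 9.15 CPM at 12 h, against 0.179 to 1.76 CPM in wt.

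*Pydc3* was the only gene whose genotype difference changed with time by the interaction test on the log2(CPM + 1) scale. The table's *Pydc3* is *Ifi208* in current annotation (chr1:173673675-173698395, plus strand), of the interferon-inducible PYHIN family of pyrin domain proteins. At M0 it was nearly silent, with 1 and 4 reads in wt and 27 and 34 reads in *Treml4*-/- libraries. After LPS *Pydc3* stood at 8.50 and 10.1 CPM in wt against 285 and 366 CPM in *Treml4*-/- at 8 h, and at 4.01 and 3.61 against 307 and 301 CPM at 12 h. The ratio of the means was 35.0 at 8 h and 79.8 at 12 h. At M0 the summed *Pydc3* reads, per library total, gave a ratio of 12.2 (95% exact interval 4.96 to 39.0, counting error only). The differences in log2(CPM + 1) were 0.60 ± 0.13 at M0 (limma adjusted p = 0.389), 4.98 ± 0.13 at 8 h (9.24e-09) and 5.99 ± 0.13 at 12 h (1.25e-09).

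The interaction of genotype and time was called for *Pydc3* alone (0.00827% of the tested genes, limma adjusted p = 2.89e-07), and 538 genes had an unadjusted p under 0.05. On the deposited log2 values and with voom on the reads 0 genes were called, and without wt M0 replicate 1 or wt M0 replicate 2 there were 6 and 3. Across time points the *Pydc3* difference was 3.86 ± 0.65 (limma adjusted p = 0.02), and it missed the threshold in 9 of 32 other settings (adjusted p up to 0.478). The other PYHIN genes did not pass the test. Of 11 tested members *Pydc3* was the only call (0.381% over all tested genes). An unadjusted p under 0.05 was found for 4 (20.0% over all tested genes), and 9 had a difference above 0 (8000 of 12086). The PYHIN list too was chosen with earlier results of these data known, so its counts are no test of the family. The list's median was 0.17, and *Aim2*, which encodes a DNA sensor of the inflammasome, had a difference of 0.26 ± 0.12 and *Ifi204* one of 0.20 ± 0.07. Of the *Pydc3* windows 3.32% occur in other genes.

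The *Pydc3* promoter is shown because this gene went from near silence at M0 to 285 to 366 CPM after LPS in *Treml4*-/-, against 3.61 to 10.1 CPM in wt. The window is chr1:173673415-173673714, plus strand (RefSeq, GRCm38.p6), and capitals mark 2 copies of GAAA with 2 bases between them, the core of an interferon-stimulated response element (ISRE).
Pydc3: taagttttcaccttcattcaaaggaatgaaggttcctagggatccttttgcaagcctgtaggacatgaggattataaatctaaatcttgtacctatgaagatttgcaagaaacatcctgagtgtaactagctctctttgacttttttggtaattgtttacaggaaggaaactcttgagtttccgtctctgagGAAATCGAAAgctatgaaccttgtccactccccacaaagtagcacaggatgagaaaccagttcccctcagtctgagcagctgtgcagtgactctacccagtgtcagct
It holds 1 match on the gene's strand. Searched on both strands, this ISRE core occurs in 3.44% of the 32851 promoters (1131 promoters).

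Besides *Treml4*, *Cdc42bpg* and *Camk2b*, 3 genes were lower in *Treml4*-/- and separated at every time point. *Rab4a* (chr8:123805985-123835287, plus strand) encodes a small GTPase of early endosomes that returns membrane proteins to the cell surface. It fell steeply after LPS in both genotypes. *Rab4a* stood at 10.1 and 11.0 CPM in wt against 2.00 and 1.78 CPM in *Treml4*-/- at M0, and at 1.73 and 1.79 against 0.25 and 0.278 CPM at 12 h. At 8 h the libraries held 57 and 34 reads in wt and 2 and 6 reads in *Treml4*-/-. From summed reads the wt level of *Rab4a* was 5.58-fold that of *Treml4*-/- at M0 (95% exact interval 4.79 to 6.54, counting error only), 12.4-fold at 8 h (6.06 to 29.7) and 6.62-fold at 12 h (4.43 to 10.2). The *Rab4a* difference was -1.995 ± 0.133 at M0 (limma adjusted p = 3.19e-05), -0.81 ± 0.13 at 8 h (0.0815) and -1.12 ± 0.13 at 12 h (0.00566), and -1.31 ± 0.16 across time points (0.00138).

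*Gm15446* (chr5:109923400-109943936, plus strand) was a low gene in wt and almost without reads in *Treml4*-/-. The wt libraries held 90 and 78 reads of *Gm15446* at M0, 35 and 29 at 8 h and 46 and 68 at 12 h, and the *Treml4*-/- libraries held 1 and 2, 0 and 6, and 3 and 4. The ratios of wt over *Treml4*-/- from summed *Gm15446* reads were 55.9 at M0 (95% exact interval 18.8 to 274, counting error only), 11.7 at 8 h (5.08 to 33.0) and 16.8 at 12 h (7.88 to 42.7). Its difference across time points was -0.99 ± 0.10 (limma adjusted p = 0.000447), and 10.7% of its windows are shared with *Zfp932*. *Gm15931*, an unprocessed pseudogene that starts 376069 bases from the start of *Gm14548* on chromosome 7 (chr7:4274189-4282645, plus strand), rose with time after LPS in both genotypes. It stood at 8.99 and 8.83 CPM in wt against 4.48 and 5.39 CPM in *Treml4*-/- at M0, 13.2 and 16.5 against 7.68 and 8.82 CPM at 8 h, and 16.7 and 21.8 against 10.6 and 12.9 CPM at 12 h. The *Gm15931* difference was -0.73 ± 0.09 (limma adjusted p = 0.00138), the direction opposite to that of *Pira2* and *Gm14548*. The call across time points was lost in 2 of 32 other settings for *Gm15931*, 1 of 32 for *Rab4a* and 1 of 31 for *Gm15446*.

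The remaining separated genes were higher in *Treml4*-/- by smaller amounts, and none passed the test at a single time point. The most abundant was *Spp1* (chr5:104435118-104441050), encoding osteopontin, a secreted matrix protein and cytokine of activated macrophages. *Spp1* stood at 673 and 593 CPM in wt against 1030.0 and 922 CPM in *Treml4*-/- at M0, 644 and 613 against 1026 and 1122 CPM at 8 h, and 637 and 460 against 937 and 758 CPM at 12 h. All 6 *Treml4*-/- libraries were above the highest wt library, with ratios of the means of 1.54, 1.71 and 1.54 and a difference of 0.68 ± 0.08 (limma adjusted p = 0.00156). The *Spp1* call was lost in 3 of 32 other settings.

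*Kitl* (chr10:100015630-100100416), encoding stem cell factor, the ligand of the receptor Kit, rose after LPS in both genotypes. It stood at 2.95 and 2.30 CPM in wt against 4.18 and 4.58 CPM in *Treml4*-/- at M0, 9.10 and 11.5 against 16.7 and 25.9 CPM at 8 h, and 9.40 and 7.92 against 15.7 and 13.9 CPM at 12 h. The *Kitl* difference was 0.75 ± 0.11 (limma adjusted p = 0.00843). *Pls3* (chrX:75785654-75875182), encoding the actin-bundling protein plastin 3, stood at 19.6 to 47.6 CPM in wt and 30.1 to 64.2 CPM in *Treml4*-/-, with a difference of 0.66 ± 0.09 (adjusted p = 0.0044). Calls for *Kitl* and *Pls3* were each lost in 4 of 32 other settings.

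The others were expressed at a few CPM. *Atp9a* (chr2:168634438-168742409), of the P4-type ATPases of membranes, stood at 0.26 to 1.35 CPM in wt and 0.86 to 4.46 CPM in *Treml4*-/- (difference 0.85 ± 0.16, limma adjusted p = 0.0323). *Igf2bp3* (chr6:49085223-49214957), encoding an RNA-binding protein, stood at 0.288 to 3.49 CPM in wt and 1.23 to 5.13 CPM in *Treml4*-/- (0.75 ± 0.14, adjusted p = 0.0282). For these the call was lost in 16 of 31 and 13 of 31 other settings. *Fam115a* (chr6:42668002-42710088), now *Tcaf1*, encoding a factor associated with TRP channels, stood at 0.230 to 1.97 CPM in wt and 0.694 to 4.38 CPM in *Treml4*-/- (0.70 ± 0.09, adjusted p = 0.00325). The *Fam115a* call was lost in 3 of 31 other settings. Outside the naming rule and named after their values were seen, *Cryab*, a small heat shock protein gene, had a difference of 0.66 ± 0.09 (adjusted p = 0.00325) and *Fam83h* one of 0.62 ± 0.07 (adjusted p = 0.000447).

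**Figure D3:**
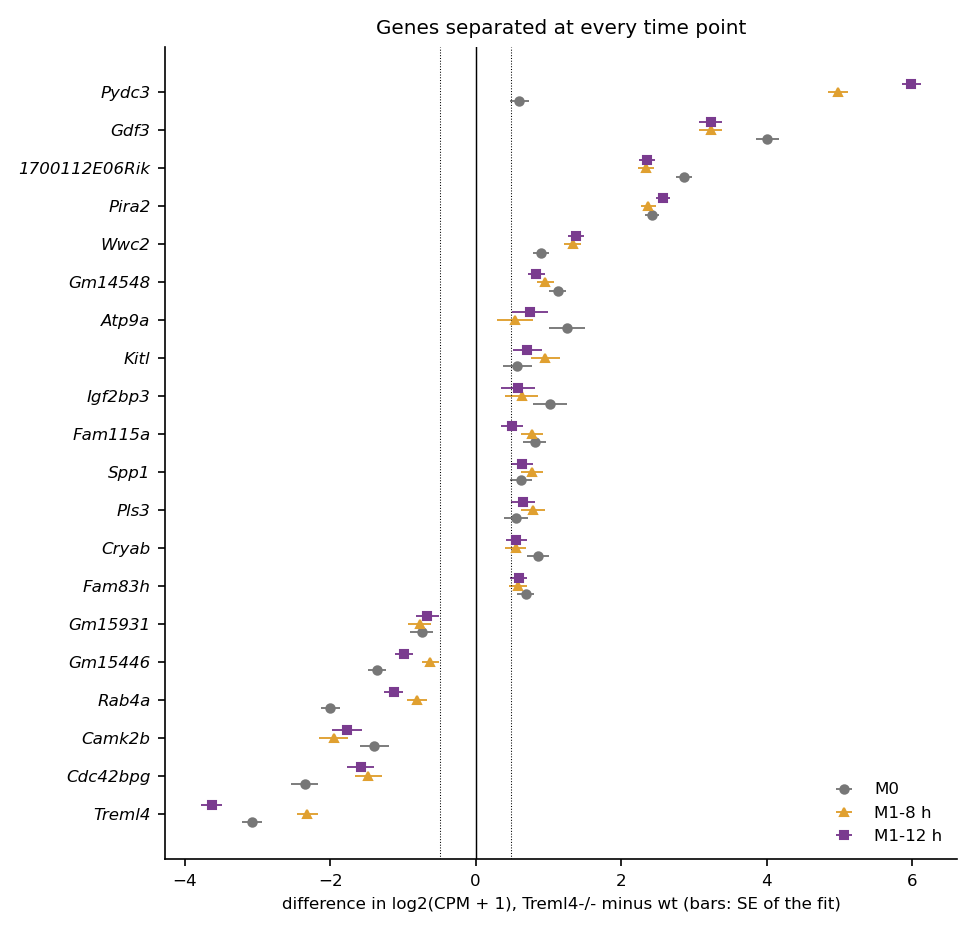
Difference in log2(CPM + 1), *Treml4*-/- minus wt (horizontal axis), at M0 (circles), M1-8 h (triangles) and M1-12 h (squares) for the 20 genes separated at every time point (vertical axis); bars are the SE of the limma fit and dotted lines mark 1.4-fold. The 3 symbols lie close together for *Pira2* (2.42, 2.37 and 2.57) and far apart for *Pydc3* (0.60, 4.98 and 5.99).

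The other 26 genes called across time points overlapped, or fell short of 1.4-fold, at 1 or more of them. Of these 23 were higher and 3 lower, with differences no larger than 0.65. The 3 lower genes, named after their values were seen, were *Cxcl1*, encoding a neutrophil-attracting chemokine (-0.58 ± 0.12, limma adjusted p = 0.0493), *Fbrsl1* (-0.55) and *Smagp* (-0.52). Of all 46 genes 8 were called at 3 time points, 3 at 2 time points, 4 at 1 and 31 at none. The difference had the same sign at the 3 time points in 46 of 46 genes, which the call across time points favours, against 5327 of the 12086 tested genes.

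Among them were clade B serpins, intracellular protease inhibitors, of which 3 of 9 tested were called higher (0.306% over all tested genes) and 0 lower, with a list median of 0.26. All 9 had an unadjusted p under 0.05, against 20.0% of the tested genes. The list was chosen with earlier results of these data known, so these counts describe its genes and are no test of the family. *Serpinb1c*, *Serpinb6b* and *Serpinb9b* start within 129205 bases of each other on chromosome 13 (chr13:32881434-32898211, chr13:32965209-32979067 and chr13:33027416-33041884). *Serpinb9b* stood at 23.1 and 31.1 CPM in wt against 40.3 and 35.3 CPM in *Treml4*-/- at M0, 45.0 and 47.1 against 78.0 and 69.3 CPM at 8 h, and 31.0 and 38.2 against 64.3 and 54.7 CPM at 12 h. Its libraries did not overlap at any time point, but its ratio at M0 fell just short of 1.4 (1.39). *Serpinb6b* stood at 26.1 to 50.4 CPM in wt and 36.9 to 68.2 CPM in *Treml4*-/-, and *Serpinb1c* at 0.949 to 3.07 and 1.80 to 3.94 CPM. The differences across time points were 0.64 ± 0.09 for *Serpinb9b* (limma adjusted p = 0.00423), 0.51 ± 0.08 for *Serpinb6b* (0.011) and 0.57 ± 0.11 for *Serpinb1c* (0.0323). The calls were lost in 4 of 32, 12 of 32 and 18 of 31 other settings. Of the other 6 serpins *Serpinb2*, encoding an inhibitor of plasminogen activators, had a value below 0 (-0.41 ± 0.11, adjusted p = 0.127). Its wt over *Treml4*-/- ratios were 9.40 at M0, 1.34 at 8 h and 1.59 at 12 h. Its libraries ran from 0.0787 to 6.65 CPM in wt and from 0.0374 to 4.39 CPM in *Treml4*-/-, and at the low end the added 1 CPM shrinks the difference.

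**Figure D4:**
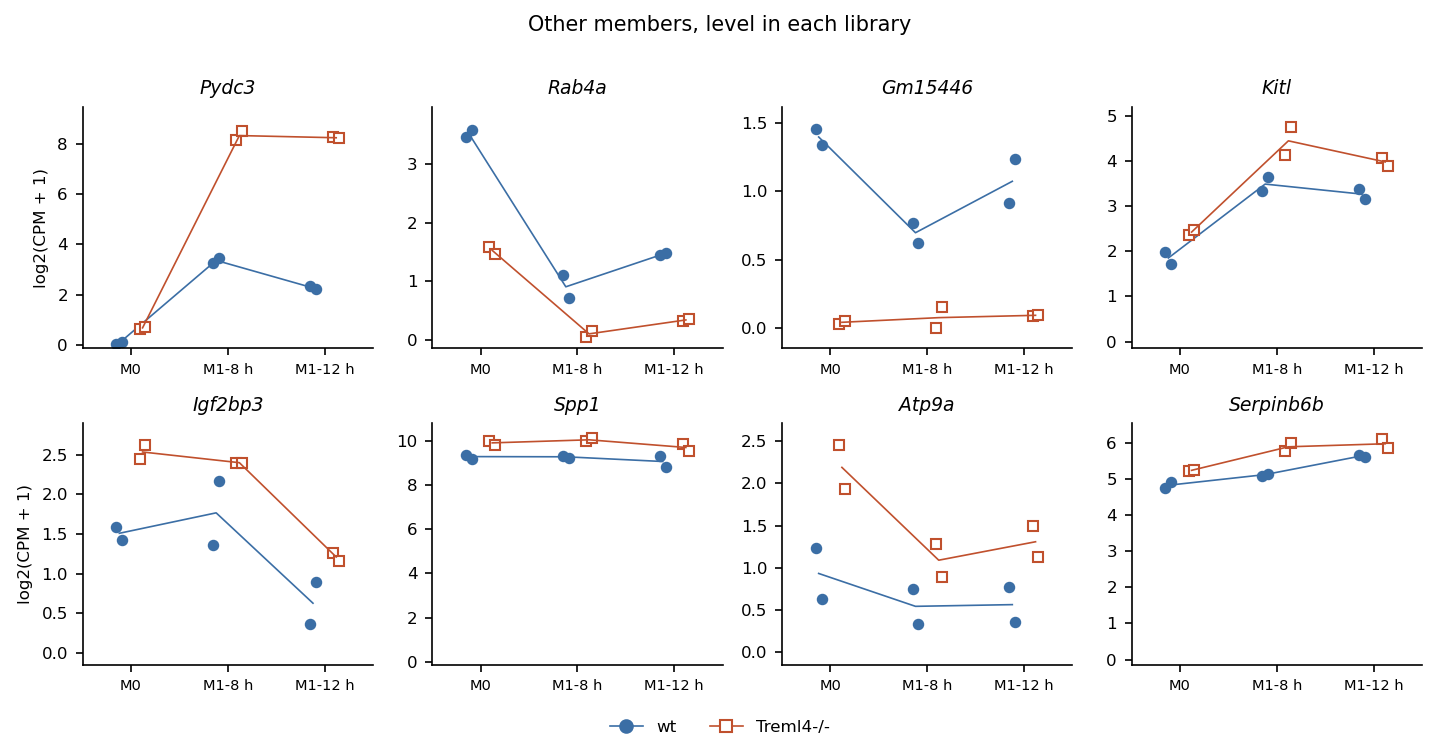
Level as log2(CPM + 1) (vertical axes, each with its own scale) at M0, M1-8 h and M1-12 h of 7 further separated genes and of *Serpinb6b*. Circles are the 2 wt libraries, squares the 2 *Treml4*-/- libraries and lines their means, with *Pydc3* at 285 to 366 CPM in *Treml4*-/- after LPS and *Gm15446* at 0 to 6 reads in each *Treml4*-/- library.

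The response of the members to LPS over both genotypes, which the genotype call did not use, was tested in the same model. At 8 h 1 of the 8 genes was higher than at M0 (*Camk2b*) and 5 were lower, and at 12 h 1 was higher and 4 were lower. Over all tested genes 17.1% were higher and 59.8% lower at 8 h, and 16.3% and 60.3% at 12 h, so the share of members that fell was near the background. Among the 20 separated genes 4 were higher and 9 lower at 8 h, and 4 and 10 at 12 h. The median level of the 8 genes was 2.67 in log2(CPM + 1) and that of all tested genes 3.97.

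By position, the 46 genes lay on 19 chromosomes. Only *Treml4* and *Qpct* were on chromosome 17, and the called gene nearest to *Treml4* was 30787611 bases away. Of 74 other tested genes within 5 Mb of *Treml4*, 0 were called (limma), 14 had an unadjusted p under 0.05 against 20.0% of all tested genes, and their median difference was -0.01. Besides the serpins, the called genes within 2 Mb of each other were *Pira2*, *Gm14548* and *Gm15931* on chromosome 7, and *Gm15446* and *Fbrsl1*, whose starts are 525103 bases apart on chromosome 5.

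The last comparison placed the members among lists of genes related to the receptor and to macrophage polarization. Of 26 tested TREM family and DAP12 signalling genes *Treml4* was the only call (0.381% over all tested genes), and the median was -0.01. *Trem2*, encoding a lipid-sensing receptor that pairs with DAP12, had a difference of -0.01 ± 0.07, *Tyrobp* one of -0.13 ± 0.07, and *Trem1*, encoding a receptor that amplifies inflammation, one of -0.41 ± 0.13 (limma adjusted p = 0.162). *Trem1* stood at 0.829 and 0.787 CPM in wt against 0.835 and 0.767 CPM in *Treml4*-/- at M0, and at 4.34 and 5.76 against 3.17 and 1.84 CPM at 12 h.

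Of 32 genes of endosomal Toll-like receptor signalling 0 were called and 9 had an unadjusted p under 0.05. Over all tested genes this share was 20.0% (2423 genes), beside which the counts of each list are to be read. *Tlr7* had a difference of 0.06 ± 0.09 and *Tlr9* one of -0.21 ± 0.07. Of 12 M1 markers 0 were called and 3 had an unadjusted p under 0.05, with a median of -0.08 and 2 of 12 above 0. *Nos2*, encoding the inducible nitric oxide synthase, rose from 3.39 to 6.90 CPM at M0 to 15560 to 19420 CPM after LPS over all libraries and had a difference of -0.02 ± 0.11, and *Tnf* had one of -0.06 ± 0.09. The lowest was *Il1b*, encoding interleukin 1 beta and named after its values were seen, at -0.48 ± 0.15 (limma adjusted p = 0.166), with wt over *Treml4*-/- ratios of 1.73, 1.58 and 1.52 at the 3 time points. Of 8 tested M2 markers 0 were called and 4 had an unadjusted p under 0.05, with a median of 0.26. *Mrc1*, encoding the mannose receptor, had a difference of 0.50 ± 0.20 (limma adjusted p = 0.21), and its wt replicates stood apart, at 62.0 and 36.8 CPM at M0.

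Markers of other cells that a marrow culture can hold were read in the same way. Of 9 tested neutrophil genes 0 were called and 4 had an unadjusted p under 0.05, with a median of 0.33. The difference was above 0 in 8 of these 9 genes, against 8000 of the 12086 tested genes, and reached 0.695. *Elane* and *Mpo* were named after their values were seen. The *Treml4*-/- over wt ratios at M0, 8 h and 12 h were 2.2, 1.93 and 2.42 for *Elane*, and 1.99, 1.54 and 1.65 for *Mpo*. The summed level of the list was 98.7 to 518 CPM in wt and 134 to 508 CPM in *Treml4*-/-. *Ly6g*, too low to be tested, held 7 reads or fewer in each library. The 4 dendritic cell, 1 T and NK cell, 2 B cell, 2 erythroid, mast and megakaryocyte and 4 stromal genes that were tested gave 0 calls. Likewise 0 of 9 tested genes that vary between inbred mouse lines were called (1 had an unadjusted p under 0.05). Of the 14 genes of that list 3 held 0 reads in every library. Gene levels do not read differences in sequence, so the genetic background of the 2 genotypes was not tested. Of 4 tested sex-linked genes 0 were called, 3 had an unadjusted p under 0.05, and all 4 differences were above 0 with a median of 0.38. These 4 genes (*Ddx3y*, *Kdm5d*, *Eif2s3y* and *Uty*) lie on the Y chromosome, and each stood at 6.16 CPM or more in every library of both genotypes. *Xist*, too low to be tested, stood at 0 to 0.791 CPM in wt and 0 to 0.0513 CPM in *Treml4*-/-. The summed level of the 8 listed sex-linked genes was 40.4 to 66.2 CPM in wt and 49.96 to 103.8 CPM in *Treml4*-/- libraries. The part of these genes and of other cells in the differences above was not tested.

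**Figure D5:**
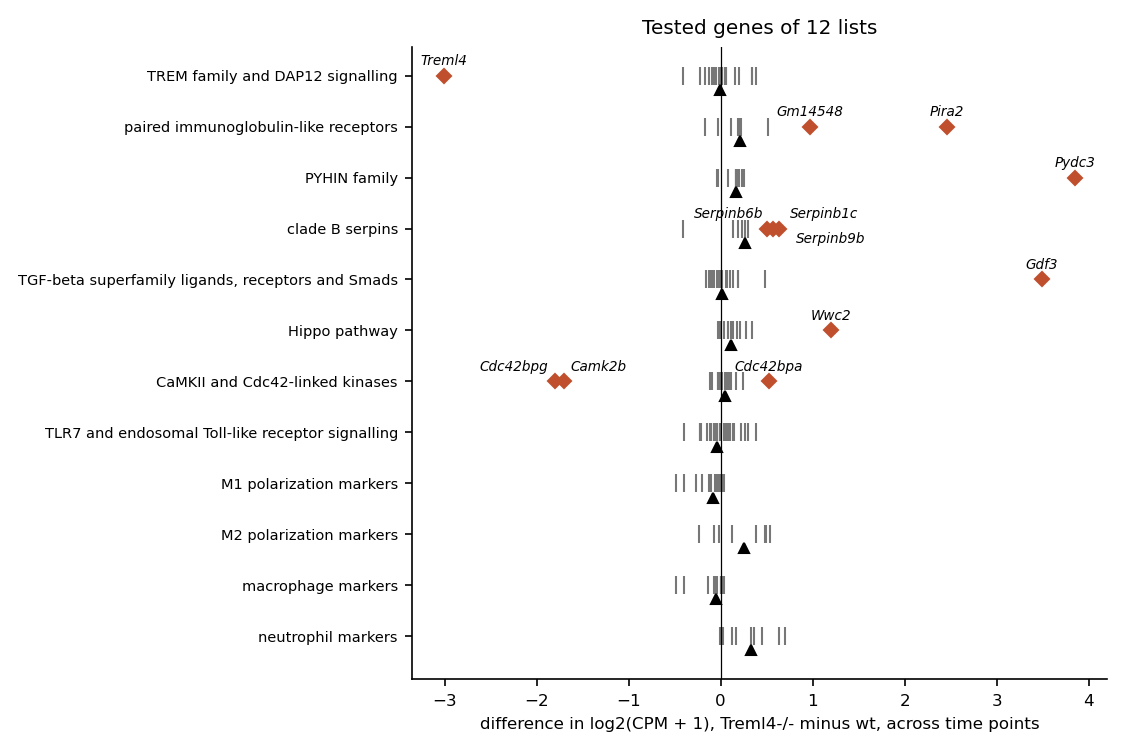
Difference in log2(CPM + 1), *Treml4*-/- minus wt, across time points (horizontal axis) for the tested genes of 12 lists (vertical axis). Bars are genes not called, diamonds genes called and triangles list medians, which lie between -0.08 and 0.33 in every list while the called genes reach from -3.01 to 3.86.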

How the data were processed

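RNA was sequenced from macrophages as 12 strand-specific poly(A) libraries, 2 per genotype and time point. The authors aligned the reads with STAR to mm10 (per the labels), counted them on genes and deposited log2 CPM, with a prior of 0.25 reads at the mean library size. Versions, annotation, the treatment of reads matching several genes and the use of strand in counting are not given in the sources used here. The planned test assumed CPM, to which the log2 values were therefore converted. From these, 100% of values gave a whole number of reads (tolerance 0.01 reads), and recomputing the deposited log2 CPM left differences of 5.2e-14 or less.

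The test was that of limma 3.58.1 (R 4.3.3), with a variance trend and Benjamini-Hochberg adjustment, on log2(CPM + 1) of genes reaching 1 CPM in 2 or more libraries. Genotype and time were additive terms, and culture (genotype and replicate number) was a random block. Differences by time point and the interaction came from a model with a mean per group. The fold on this scale understates changes of low genes, and ratios of CPM are therefore given beside it for the genes with the largest differences, from summed reads with exact intervals where a library held few reads. Calls needed an adjusted p under 0.05 and 1.4-fold. The labels do not tie libraries to animals. P-values and SE therefore measure the spread of these libraries around the fitted means and not the spread between mice. The fits made almost no allowance for a shared culture (correlation -2.5e-05 in the additive model and 0.041 in the model of group means). The test was also run on simulated reads, drawn independently for each library with no effect shared by a culture. That run therefore cannot tell how the test behaves where libraries share an animal.

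Named genes were *Treml4*, genes called at every time point, up to 12 separated genes per direction with the largest difference, and called genes of the written lists, with older symbols matched through RefSeq (9 symbols). Members and lists were chosen with earlier results of these data known. Positions are from GENCODE on GRCm38, with a current name from RefSeq where the table's symbol is older. Shared windows of 126 bases, the read length, were counted over all annotated transcripts. Alternatives were other pseudocounts, filters, scalings, tests and blocks, and leaving out each library, culture or time point. Reads between 48008751 and 58500792 per library make 3 reads the floor for a gene at 0, which covers counting error only.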

Additional observations from a re-analysis of the deposited data

Results flagged for a closer look

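On the log2(CPM + 1) scale the genotype difference of *Pydc3* changed with time, with an interaction of genotype and time at a limma adjusted p of 2.89e-07. Its difference in log2(CPM + 1), *Treml4*-/- minus wt, was 0.60 at M0, 4.98 at 8 h and 5.99 at 12 h of LPS, and both *Treml4*-/- libraries were above both wt libraries at each time. On the deposited log2 values and with voom the interaction was called for 0 genes. At M0 *Pydc3* held 5 reads in wt and 61 in *Treml4*-/- libraries, a level at which the added 1 CPM shrinks the difference. The ratio of *Treml4*-/- over wt from summed reads was 12.2 at M0 (95% exact interval 4.96 to 39.0, counting error only). It was 34.7 at 8 h (32.6 to 37.0) and 79.7 at 12 h (72.1 to 88.3).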

How the results depend on the processing

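Across time points the 46 calls became 71 with a pseudocount of 0.1, 22 with no filter on low values, 70 with voom on the reads, 78 with no minimum fold, 12 with culture means, 17 without M1-8 h and 13 without M1-12 h. Leaving out 1 library or culture gave 15 to 408, the extremes being without *Treml4*-/- replicate 1 and without wt replicate 1, with 24 without *Treml4*-/- replicate 2. The 20 separated genes became 43 with the pseudocount of 0.1, 38 on the deposited log2 values and 40 with voom, and 15 to 60 on leaving out a library or culture (60 without wt replicate 1, 15 without *Treml4*-/- replicate 1). The 8 genes called at every time point became 5 with no filter and 4 to 24 on leaving out (4 without wt replicate 2, 24 without wt replicate 1, 5 without either *Treml4*-/- replicate). The 12 calls at M0 became 7 with the 4 libraries of that time alone and 6 to 355 on leaving out, the 11 at 8 h became 5 and 6 to 763, and the 16 at 12 h became 8 and 6 to 404. At 12 h there were also 7 with no filter and 10 with voom. Without a single library these were 7 at M0 (*Treml4*-/- M0 replicate 1), 21 at 8 h (wt M1-8 h replicate 1), and at 12 h 10 (either *Treml4*-/- M0 replicate), 6 (wt M1-12 h replicate 2) and 7 (either *Treml4*-/- M1-12 h replicate). The single interaction call became 0 on the deposited log2 values and with voom, 2 under both quantile normalization and median of ratios scaling, and 1 to 6 on leaving out. Culture means leave fewer samples and a table without a filter adjusts over more genes, and the cause of the other changes was not tested. Of the 20 separated genes 11 were called with culture means, and each named gene kept its sign, while the balance of higher and lower calls at 8 h and 12 h turned under both scalings.

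With the replicate number as a fixed block 50 genes were called across time points, 44 of them among the 46. The deviations of same-numbered wt and *Treml4*-/- libraries correlated in no common direction (r = -0.264 at M0, 0.297 at 8 h and 0.056 at 12 h, across genes). The numbers were not taken as pairs. The correlation of libraries of a culture, 1 value for all genes, was -2.5e-05 in the additive model. Treating libraries as independent was thus nearly the same fit, and its 46 calls do not test the dependence. By pairs of time points, deviations of same-numbered wt libraries correlated across genes at 0.125 (M0 and 8 h), 0.062 (M0 and 12 h) and 0.406 (8 h and 12 h). For *Treml4*-/- libraries these values were 0.462, -0.199 and -0.272. A further 32 genes passed the adjusted p with less than 1.4-fold, and genes under 1 CPM were not tested.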
